A study of Mus musculus with 19 samples.

Results

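The 10 genes Vegfa, Kdr, Flt1, Angpt1, Angpt2, Tek, Pecam1, Cdh5, Aplnr and Esm1 were followed in total RNA-seq of mouse mammary tissue. They were taken by symbol from 24421 gene entries as genes of the blood vessel wall and of vessel growth, and all 10 were found in each of the 19 libraries and passed the filter on low counts. The tissue came from mice of 8 to 12 weeks, labelled C57BL/6 and named C57BL/6N in the study's methods. WT females gave 3 libraries at day 6 of pregnancy (p6) and 3 at day 18 (p18). Mice with a deletion of the 4-part enhancer cluster at the casein locus, called ΔSE here, gave 4 libraries at p6 and 4 at p18. Mice lacking an enhancer of Csn1s2b (ΔCsn1s2bE) gave 3 libraries at p18, and mice lacking an enhancer of Csn3 (ΔCsn3PE) gave 2. The mutants were made by CRISPR/Cas9 editing of the germ line, so every cell of the gland carries the deletion. Each library is described as an independent biological replicate, and neither the number of founder lines nor the litters are stated for them. The extraction notes of the 5 single-enhancer libraries name wild-type tissue of early and mid lactation instead of p18, so that their stage is uncertain, and they have no WT libraries of their own set.

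The mammary gland builds a dense capillary bed around the forming alveoli during pregnancy, which carries the substrates of milk to the secretory cells. VEGF-A, the product of Vegfa, drives endothelial growth through the receptor VEGFR2 (Kdr), whereas VEGFR1 (Flt1) binds the same ligand and can act as a decoy. Angiopoietin 1 (Angpt1) activates the endothelial receptor TIE2 (Tek) and keeps vessels stable, and angiopoietin 2 (Angpt2) competes with it in a context-dependent way and is released by endothelium of vessels that remodel. Pecam1 and Cdh5 encode adhesion molecules of endothelial junctions, Aplnr encodes the apelin receptor, and Esm1 encodes endocan, a proteoglycan secreted by sprouting endothelium. In whole tissue, fewer cells of a type and less RNA per cell cannot be told apart.

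The libraries held 12335272 to 30329601 reads in genes. The ribosomal entry Rn45s took 21.7% to 42.9% of the reads in WT and ΔSE libraries and 0.0765% to 0.924% in the single-enhancer libraries. Levels are therefore given as normalized CPM, reads of a gene scaled to a common library size of 1e6 by TMM over all 19 libraries. The targeted genes were checked in every library. Csn3 encodes the casein that coats milk micelles. It reached 5168 to 6707 normalized CPM in WT at p18, against 50.1 to 146 in ΔSE at p18 and 276 to 1358 in ΔCsn3PE. In ΔCsn1s2bE it reached 13258 to 20765. Csn2, another casein gene, reached 33257 to 62778 in the single-enhancer libraries, against 20658 to 25443 in WT at p18. The part of stage or library set in these levels was not tested. Csn1s2b, a casein active mainly in lactation, reached 42.7 to 217 in WT at p18, 2.62 to 15.7 in ΔSE at p18 and 27.8 to 51.5 in ΔCsn1s2bE, where it overlapped WT. In ΔSE at p6 Csn1s2b lay at 0 to 0.113 in replicates 1 to 3. In replicate 4 it lay at 9.95, above the 1.65 to 5.01 of WT at p6. Csn3 in replicate 4, at 5.84, lay above replicates 1 to 3 (0.394, 0 and 0.949) but below the WT libraries (46.4 to 423). The library labelled ΔSE p6 replicate 4 therefore stands apart from the other ΔSE p6 libraries on both targets. Calls that involve ΔSE at p6, the ratio tests and the counts over gene lists are also given without it. None of the 20 further endothelial genes examined was at 0 when reads were summed over a group. The same held for the fibroblast, adipocyte and skeletal muscle markers, so this shows only that endothelial transcripts were present.

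Other cell types moved with the groups. The summed level of 8 fibroblast markers was 10245 to 13070 normalized CPM in ΔSE at p6 and 1108 to 9622 in WT at p6, and 3462 to 6726 over both genotypes at p18. The sum of 10 skeletal muscle markers was 1298 to 2439 in WT at p6, 2832 and 3887 in ΔSE p6 replicates 2 and 4, 54.2 and 130.3 in ΔSE p6 replicates 1 and 3, and 8.86 to 20.5 in ΔSE at p18. In WT at p18 it was 6.82 in replicate 1 and 1088 and 1614 in replicates 2 and 3. The part of these tissue shares in the results below was not tested.

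**Figure D1:**
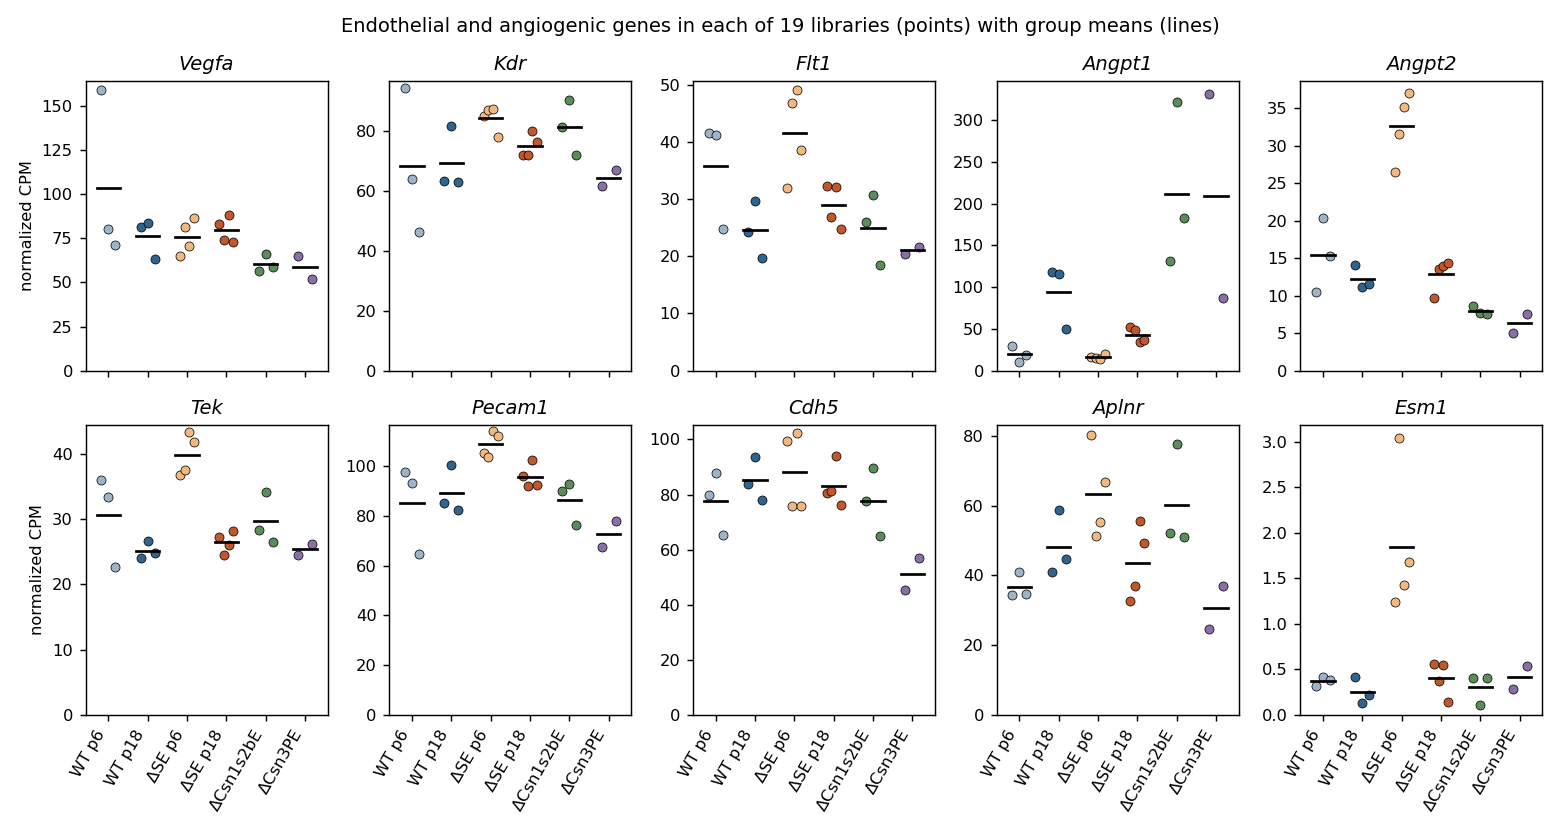
Normalized CPM of each gene (vertical axis, from 0) in each of the 19 libraries, by group; points are libraries and lines are group means. Angpt1 was higher at p18 than at p6 in both WT and ΔSE, Angpt2 and Esm1 stood highest in the 4 ΔSE libraries at p6, and Cdh5 was lowest in the 2 ΔCsn3PE libraries.

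Among the ligands, Angpt1 had the largest rise of the 10 genes between p6 and p18. In WT its level was 30.1, 10.6 and 18.5 normalized CPM in the 3 libraries at p6 and 119, 116 and 49.6 in those at p18. Every p18 library lay above every p6 library, which held for 1 of the 10 genes in WT and for 39.9% of all genes in either direction. The WT change was 4.91-fold (log2 2.30 ± 0.34 SE, adjusted p = 0.000156, edgeR quasi-likelihood test). In ΔSE the level was 16.3, 14.7, 14.2 and 20.3 at p6 and 52.2, 49.1, 34.0 and 36.5 at p18. These groups were also separate, as they were for 5 of the 10 genes in ΔSE and for 38.1% of all genes. The ΔSE change was 2.64-fold (log2 1.40 ± 0.29 SE, adjusted p = 0.00158 by edgeR). Angpt1 was the only one of the 10 genes called between stages in WT, where 29.6% of all 17844 genes tested were called. The rise was called in all alternative analyses but the one that removed a factor of unwanted variation, where Angpt1 had an adjusted p of 0.629 in WT and 1 in ΔSE by edgeR. GENCODE annotates an antisense gene over an Angpt1 exon on chromosome 15, and the strand setting of the counting is not stated, so reads of both strands may be mixed.

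Angpt2 encodes the partner ligand and went the other way in ΔSE. Its level was 26.5, 31.5, 35.2 and 37.0 normalized CPM in ΔSE at p6 and 9.76, 13.6, 13.9 and 14.4 at p18. All p18 libraries were lower than all p6 libraries, and Angpt2 fell by 1.32 on the log2 scale (± 0.19 SE, adjusted p = 6.69e-05 by edgeR). In WT the level was 10.4, 20.4 and 15.3 at p6 and 14.1, 11.2 and 11.5 at p18. These groups overlapped, with a log2 difference of -0.31 ± 0.22 (SE; adjusted p = 0.304 by edgeR). The difference between the genotypes in this stage change was -1.01 ± 0.28 on the log2 scale, with an adjusted p of 0.114 by edgeR and 0.0159 by DESeq2, so that a different course in ΔSE was not shown by the test chosen.

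Tek, the receptor of both angiopoietins, fell by 0.58 on the log2 scale in ΔSE between p6 and p18 (± 0.13 SE, adjusted p = 0.00243 by edgeR). Its level was 36.7, 37.5, 43.4 and 41.9 normalized CPM at p6 and 27.2, 24.5, 26.0 and 28.1 at p18. The groups were separate in ΔSE. In WT Tek stood at 36.0, 33.4 and 22.7 at p6 and 24.1, 26.7 and 24.7 at p18, overlapping, with a log2 difference of -0.26 ± 0.15 (SE; adjusted p = 0.206 by edgeR). The difference between these changes was -0.32 ± 0.20 (SE; adjusted p = 0.436 by edgeR).

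In all, 6 of the 10 genes were called between p6 and p18 in ΔSE, 1 higher and 5 lower, where 35.6% of all genes tested were called, 17.3% higher and 18.3% lower. The share of lower genes among the 10 was thus above that of all genes, with no test of the list made. The 5 lower ones were Angpt2, Tek, Flt1, Aplnr and Esm1. Without the ΔSE p6 replicate 4, Angpt1 (adjusted p = 0.00235 by edgeR), Angpt2 (0.000401), Tek and Esm1 stayed called, and Flt1 (0.0608) and Aplnr (0.0799) did not. Without both muscle-rich ΔSE p6 libraries, 5 genes were called and Flt1 was not (adjusted p = 0.148 by edgeR). Scaling by library totals instead of TMM shifted the median of all genes to -0.65 and called all 10 genes, 9 of them lower, and removing a factor of unwanted variation called 0.

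Promoter sequence was at hand for Tek, Flt1 and Esm1, 3 of the 5 genes called lower at p18 in ΔSE. It is shown to place the core letters GGAA bound by ETS factors, a family with central roles in endothelium. The 250 bases before the annotated start (RefSeq, GRCm38.p6) are printed along the gene's strand in lower case, with GGAA or its complement TTCC in capitals. Tek lies at chr4:94739039-94739288 on the plus strand, Flt1 at chr5:147726012-147726261 on the minus strand and Esm1 at chr13:113209409-113209658 on the plus strand.
Tek: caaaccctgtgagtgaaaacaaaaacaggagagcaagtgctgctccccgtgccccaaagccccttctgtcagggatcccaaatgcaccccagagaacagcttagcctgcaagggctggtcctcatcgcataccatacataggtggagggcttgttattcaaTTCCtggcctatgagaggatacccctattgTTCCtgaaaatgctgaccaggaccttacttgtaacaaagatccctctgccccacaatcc
Flt1: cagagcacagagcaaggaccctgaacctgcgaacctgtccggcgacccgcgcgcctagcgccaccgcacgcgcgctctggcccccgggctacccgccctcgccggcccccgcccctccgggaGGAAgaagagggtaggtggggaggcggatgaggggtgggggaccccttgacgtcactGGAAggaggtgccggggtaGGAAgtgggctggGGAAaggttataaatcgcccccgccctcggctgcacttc
Esm1: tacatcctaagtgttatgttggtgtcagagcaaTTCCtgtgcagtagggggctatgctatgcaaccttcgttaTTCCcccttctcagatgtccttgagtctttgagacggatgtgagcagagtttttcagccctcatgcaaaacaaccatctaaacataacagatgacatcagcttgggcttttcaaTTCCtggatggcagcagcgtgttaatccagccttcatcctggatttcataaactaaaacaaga

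The window of Tek held 2 matches to GGAA on either strand, that of Esm1 3 and that of Flt1 4. At least 2, 3 and 4 matches were present in 76.8%, 54.7% and 33.4% of the 32851 mouse promoter windows of the same length, in which the median was 3. Kdr, which was not called between stages, held 4 matches and Vegfa 6, a number reached by 8.69% of windows. The hypoxia core ACGTG, found in 16.6% of windows, and the STAT motif TTCNNNGAA, found in 7.02%, were absent from these letters in all 5 of the 10 genes with a promoter entry.

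The angiopoietins were also compared as a ratio within each library, which does not depend on scaling. In WT there were 0.346, 1.93 and 0.825 Angpt2 reads for each Angpt1 read at p6 and 0.119, 0.0965 and 0.233 at p18. In ΔSE there were 1.62, 2.15, 2.49 and 1.83 at p6 and 0.187, 0.277, 0.409 and 0.393 at p18. Angpt2 reads thus outnumbered Angpt1 reads in all 4 ΔSE libraries and 1 of the 3 WT libraries at p6, and in no library at p18. These reads are not divided by exon length (3690 bases for Angpt2 and 5205 for Angpt1), so they do not rank the genes. Per kilobase of exon, the means in WT at p6 were 4.17 for Angpt2 and 3.79 for Angpt1. The mean log2 ratio was lower at p18 by 5.90-fold in WT, where the exact two-sided permutation p was 0.1, the smallest that 3 against 3 libraries allow. The WT fold was 9.06 without p6 replicate 1 and 3.85 without p6 replicate 2. In ΔSE it was lower by 6.59-fold (exact permutation p = 0.0286, the smallest for 4 against 4). Over the 8 ratio tests made, both had an adjusted p of 0.183 by the exact permutation test, so that neither passed 0.05. Without ΔSE p6 replicate 4 the ΔSE log2 difference was -2.76 (exact permutation p = 0.0571), and that of Flt1 to Kdr, described below, was -0.33 (exact permutation p = 0.171). The genotypes overlapped at both stages, with an exact permutation p of 0.171 at p6 and 0.114 at p18. In the single-enhancer libraries the ratio was lower still, 0.024 to 0.0654 in ΔCsn1s2bE and 0.0152 and 0.0875 in ΔCsn3PE, and no test was made there.

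**Figure D2:**
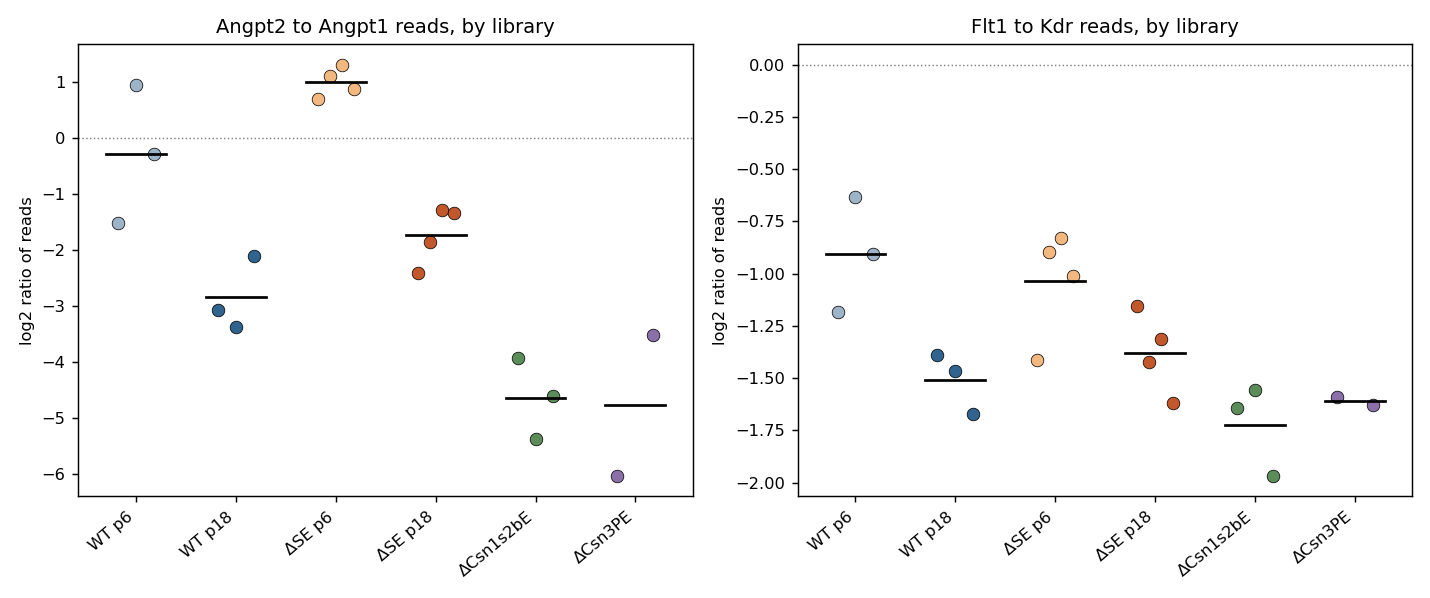
Log2 of the ratio of reads within each library (vertical axis) for Angpt2 to Angpt1 (left) and Flt1 to Kdr (right), by group; points are libraries, lines are group means and the dotted line marks equal reads. Reads are not divided by exon length, so the dotted line does not mark equal levels. The Angpt2 to Angpt1 ratio at p18 lay below every p6 library of the same genotype.

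The VEGF ligand and its main signalling receptor were not called between stages in either genotype. Vegfa stood at 159, 80.4 and 71.4 normalized CPM in WT at p6 and 81.5, 83.7 and 63.6 at p18. The value of 159 belongs to WT p6 replicate 1, which also had the lowest fibroblast sum, and the others overlapped the p18 libraries. The log2 difference of Vegfa was -0.41 ± 0.23 in WT (SE; adjusted p = 0.192 by edgeR) and 0.08 ± 0.20 in ΔSE (adjusted p = 0.777).

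Kdr was at 94.3, 63.9 and 46.4 normalized CPM in WT at p6 and 63.3, 81.7 and 63.0 at p18, and at 77.9 to 87.2 and 72.0 to 80.0 in ΔSE. Its log2 difference between stages was 0.05 ± 0.18 in WT and -0.15 ± 0.16 in ΔSE (SE), neither beyond its error. Flt1, the decoy receptor, was called lower at p18 in ΔSE. In WT it had 41.5, 41.2 and 24.8 at p6 and 24.2, 29.6 and 19.7 at p18, and in ΔSE 31.9, 46.7, 49.1 and 38.6 against 32.3, 26.8, 32.2 and 24.8. Both genotypes overlapped between stages, WT through p6 replicate 3 and ΔSE through p6 replicate 1. The log2 difference of Flt1 was -0.52 ± 0.21 in WT (SE; adjusted p = 0.0709 by edgeR) and -0.50 ± 0.18 in ΔSE (adjusted p = 0.0399), and the difference between these changes was 0.02 ± 0.28 (adjusted p = 0.987). The ratio of Flt1 to Kdr reads was 0.44 to 0.644 in WT at p6 and 0.313 to 0.382 at p18, without overlap (exact permutation p = 0.1), and 0.376 to 0.563 against 0.325 to 0.449 in ΔSE, with overlap (exact permutation p = 0.0857).

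Esm1, a gene of sprouting tip cells, was the scarcest of the 10, with 2 to 58 reads in the WT and ΔSE libraries. In ΔSE at p6 it had 1.24, 3.04, 1.42 and 1.68 normalized CPM, all above the 0.563, 0.365, 0.545 and 0.134 of ΔSE at p18. It fell by 2.19 on the log2 scale (± 0.48 SE, adjusted p = 0.00215 by edgeR). In WT it had 0.316, 0.414 and 0.382 at p6 and 0.413, 0.13 and 0.213 at p18, a difference of -0.55 ± 0.63 (SE; adjusted p = 0.549). The WT p6 libraries held 4 to 8 Esm1 reads each.

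Aplnr stood at 80.4, 51.4, 55.3 and 66.7 normalized CPM in ΔSE at p6 and 32.6, 37.1, 55.5 and 49.2 at p18. Replicate 3 at p18 reached into the p6 range, and Aplnr fell by 0.52 on the log2 scale (± 0.18 SE, adjusted p = 0.0296 by edgeR). In WT it stood at 34.3, 41.0 and 34.7 at p6 and 40.9, 58.8 and 44.8 at p18, with the opposite sign (log2 0.41 ± 0.20 SE, adjusted p = 0.140 by edgeR). The difference between genotypes in the stage change was -0.94 ± 0.27, with an adjusted p of 0.120 by edgeR and 0.0448 by DESeq2. Of the 10 genes, 0 were called for this difference by edgeR, where 0.151% of all genes were, and 2 had an unadjusted p under 0.05. DESeq2 called 2 of them and 3.27% of all genes.

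The ligand Apln, which encodes apelin, had larger stage differences than its receptor, a contrast that was not tested. It was higher at p18 by 3.21 ± 0.46 on the log2 scale in WT (SE; adjusted p = 0.000104 by edgeR) and by 3.70 ± 0.41 in ΔSE (adjusted p = 7.76e-06), and stayed called in all alternatives except the removal of unwanted variation.

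Pecam1 and Cdh5, the junction genes, were not called between stages in either genotype, although scaling by library totals called both lower in ΔSE (log2 -0.75 ± 0.17 and -0.64 ± 0.18, SE; adjusted p = 0.00167 and 0.00622 by edgeR). Pecam1 had 97.7, 93.1 and 64.4 normalized CPM in WT at p6 and 85.2, 100.4 and 82.2 at p18, and 103 to 114 and 92.1 to 102 in ΔSE. The ΔSE libraries were separate, all lower at p18, but the log2 difference was only -0.17 ± 0.12 (SE; adjusted p = 0.307 by edgeR). Cdh5 had 80.0, 87.7 and 65.4 in WT at p6 and 83.8, 93.6 and 78.0 at p18, and 75.7 to 102 and 76.4 to 94.0 in ΔSE. Its log2 difference was 0.16 ± 0.15 in WT and -0.07 ± 0.13 in ΔSE (SE), both within overlapping libraries.

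**Figure D3:**
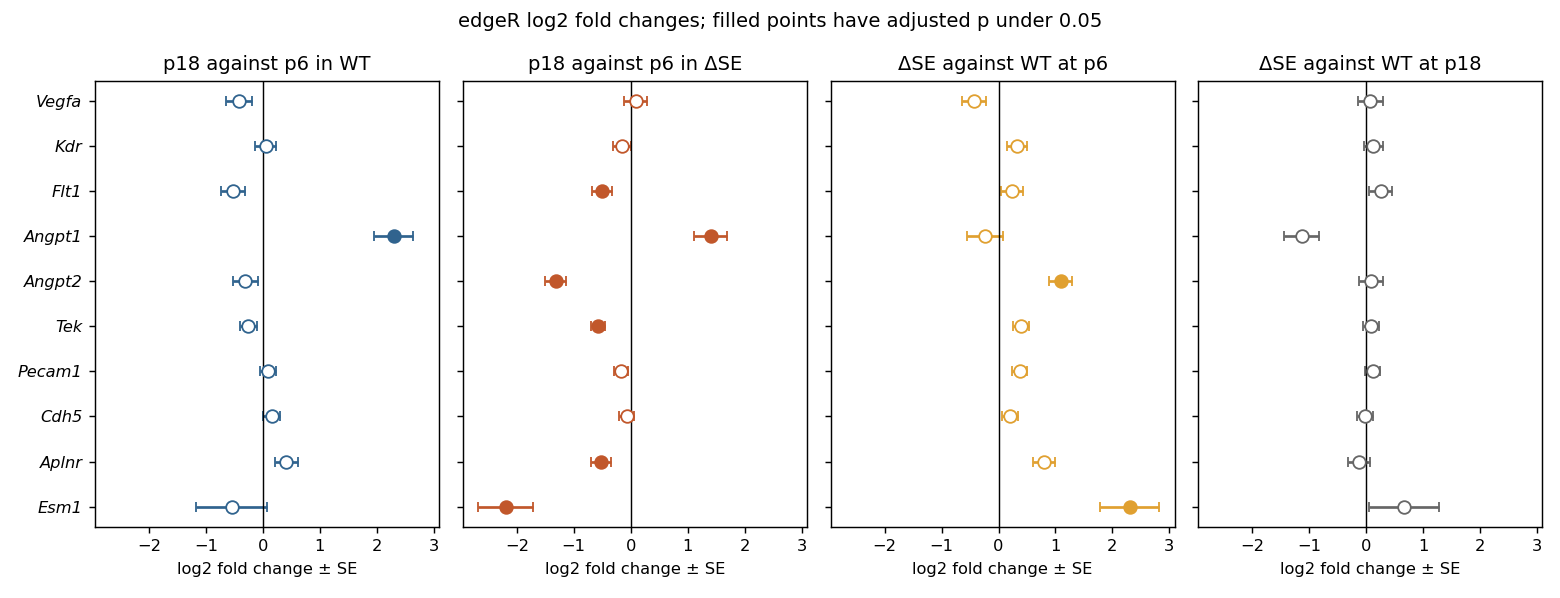
Log2 fold change with its SE (horizontal axis) for each gene in the stage comparisons within WT and ΔSE and the genotype comparisons at p6 and p18; filled points passed an adjusted p of 0.05 by edgeR. Angpt1 was the only filled point in WT, 6 points were filled in ΔSE, and at p18 no point was filled between the genotypes.

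ΔSE and WT tissue differed at p6 in 2 of the 10 genes, where 1.03% of all genes tested were called and 0.499% were called higher. Angpt2 was 2.13-fold higher in ΔSE (log2 1.09 ± 0.20 SE, adjusted p = 0.0250 by edgeR) and Esm1 4.93-fold higher (log2 2.30 ± 0.52 SE, adjusted p = 0.0458). For Angpt2, the lowest ΔSE library at p6 (26.5 normalized CPM) lay above the highest WT library (20.4). Aplnr was next, with a log2 difference of 0.81 ± 0.19 (SE; adjusted p = 0.0557 by edgeR), and was 51.4 to 80.4 in ΔSE against 34.3 to 41.0 in WT. In all, 5 genes were higher in every ΔSE library than in every WT library, Tek, Angpt2, Pecam1, Aplnr and Esm1, where 5.99% of all genes were, and 11.4% were separate in either direction. Over the 18 alternatives run for this comparison, Angpt2 was called in 8 and Esm1 in 7, and the calls were absent under the replicate block, library totals, a fit of only these 2 groups and most omissions of a single library. Without ΔSE p6 replicate 4 the adjusted p of Angpt2 was 0.0984 by edgeR and 0 genes were called. The same held without both muscle-rich ΔSE libraries (Angpt2, log2 0.98 ± 0.24 SE, adjusted p = 0.159 by edgeR). The Angpt2 level was 26.5 and 35.2 in the muscle-poor ΔSE p6 replicates 1 and 3, and 31.5 and 37.0 in the muscle-rich ones. The part of muscle was not tested. Other cell types moved in the same comparison. The fibroblast sum was also higher in every ΔSE library than in every WT library, with 8 of 8 fibroblast markers (median log2 difference 1.13, 1 called) and 10 of 10 adipocyte markers (0.62, 0 called) higher in ΔSE, and 10 of 10 luminal epithelial markers lower (-0.38, 1 called). Their part in the result was not tested.

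At p18, 0 of the 10 genes were called between ΔSE and WT by edgeR, where 0.314% of all genes tested were called. By DESeq2 1 was called, where 2.78% of all genes were, and 1 had an unadjusted p under 0.05 by edgeR. That gene was Angpt1, with 34.0 to 52.2 normalized CPM in ΔSE and 49.6 to 119 in WT. Its log2 difference was -1.13 ± 0.30 (SE), with an adjusted p of 0.111 by edgeR and 0.0205 by DESeq2. One WT library, replicate 3, overlapped the ΔSE range, and without it the adjusted p was 0.0346 by edgeR. For the other 9 genes the log2 difference lay between -0.13 and 0.66, and the groups overlapped for all 10 genes, whereas 15.1% of all genes were separate.

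The single-enhancer lines were compared with WT at p18 with 3 limits: a different library set, uncertain stage, and a far lower share of Rn45s reads. These cannot be told apart from the genotype. Against WT, 2 of the 10 genes were lower in ΔCsn1s2bE, where 32.3% of all 17125 genes tested were called and 15% were lower. In ΔCsn3PE 2 were lower, where 25.2% were called and 11.5% were lower. Groups did not overlap for 2 genes in ΔCsn1s2bE (46.9% of all genes) and 4 in ΔCsn3PE (52.2%). Angpt2 was lower in both. It stood at 8.60, 7.73 and 7.53 normalized CPM in ΔCsn1s2bE and 5.03 and 7.60 in ΔCsn3PE, all below the lowest WT library at p18 (11.2). The log2 difference was -0.69 ± 0.19 for ΔCsn1s2bE (SE; adjusted p = 0.0168 by edgeR) and -1.01 ± 0.21 for ΔCsn3PE (adjusted p = 0.00824).

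Vegfa was the second gene in ΔCsn1s2bE, at 56.3, 65.9 and 58.8 normalized CPM, with a log2 difference of -0.40 ± 0.14 (SE; adjusted p = 0.0473 by edgeR) that was 0.000276 under scaling by library totals. Cdh5 was the second in ΔCsn3PE, at 45.1 and 56.9, below every WT library at p18 (lowest 78.0), with a log2 difference of -0.79 ± 0.17 (SE; adjusted p = 0.00825 by edgeR). Angpt1 reached the highest levels of any group there, 132, 321 and 183 in ΔCsn1s2bE and 331 and 86.8 in ΔCsn3PE. The spread within the groups was wide, and its log2 differences of 1.09 ± 0.48 and 1.08 ± 0.52 (SE) did not pass (adjusted p = 0.107 and 0.154 by edgeR). Under library totals, 4 genes were called in ΔCsn1s2bE, all higher than WT (Angpt1, Kdr, Tek and Aplnr), and 1 in ΔCsn3PE, Angpt1, also higher. This scaling moved the median of all genes to 0.40 and 0.42.

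The comparison of ΔCsn1s2bE with ΔCsn3PE stays within that set. By edgeR 0 of the 10 genes were called (2 had an unadjusted p under 0.05), against 0.181% of all genes tested, and 1 by DESeq2, against 0.561%. The libraries did not overlap for 4 of the 10, Kdr, Tek, Cdh5 and Aplnr, all higher in ΔCsn1s2bE, and for 20.5% of all genes. Aplnr had the largest log2 difference, 0.96 ± 0.24 (SE; adjusted p = 0.315 by edgeR), with 51.2 to 77.6 normalized CPM in ΔCsn1s2bE and 24.7 and 36.8 in ΔCsn3PE, which do not overlap.

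Levels were set in order only per kilobase of exon (normalized CPM divided by the length of all exons in GENCODE). In WT at p18, Cdh5 led with 20.3 ± 1.87 (SD, n = 3), followed by Angpt1 with 18.2 ± 7.50 and Vegfa with 17.8 ± 2.58, whose spreads overlapped. Pecam1 (14.3 ± 1.57) and Aplnr (13.0 ± 2.55) also overlapped each other. Below them came Kdr (7.68 ± 1.19), Tek (5.34 ± 0.285), Angpt2 (3.33 ± 0.435), Flt1 (1.81 ± 0.366) and, far below, Esm1 (0.120 ± 0.0695). At p6 in WT, Angpt1 was the eighth of the 10 with 3.79 ± 1.89. In ΔSE it was the eighth at p6 with 3.14 ± 0.531 (SD, n = 4) and the sixth at p18 with 8.25 ± 1.73, and in both single-enhancer lines it was first.

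Wider lists of vascular genes were counted next, against 17.2% of all genes called higher and 12.4% lower at p18 in WT, and 17.3% and 18.3% in ΔSE. Of 20 further endothelial markers, 2 rose and 2 fell between p6 and p18 in WT (median log2 difference -0.20, against -0.05 over all genes), and 1 rose and 9 fell in ΔSE (median -0.37, against -0.07). By library totals, which moved the median of all genes to -0.42 in WT and -0.65 in ΔSE, 7 and 18 of the 20 were lower and none higher, and with a factor of unwanted variation removed 0 genes of any of these lists were called between stages. Without ΔSE p6 replicate 4, 1 of the 20 rose and 7 fell in ΔSE. The difference in stage change between the genotypes was called for 0 of the 20 by edgeR. In ΔSE 7 of 8 fibroblast markers, 7 of 10 adipocyte markers and 10 of 10 skeletal muscle markers also fell and 9 of 10 luminal epithelial markers rose, against 0, 2, 0 and 3 in WT, and their part in these counts was not tested. Nos3, the endothelial nitric oxide synthase, fell, with log2 differences of -1.56 ± 0.20 in WT and -1.95 ± 0.18 in ΔSE (SE; adjusted p = 4.57e-05 and 1.43e-06 by edgeR). Vwf, the von Willebrand factor of larger vessels, fell likewise (-1.41 ± 0.18 and -1.60 ± 0.16). Ecscr rose in both genotypes (0.91 ± 0.19 and 0.96 ± 0.16, SE; adjusted p = 0.002 and 0.000327 by edgeR). Icam2 rose in WT (0.86 ± 0.23, adjusted p = 0.00972 by edgeR). The summed level of the 20 markers was 574 to 683 normalized CPM in ΔSE at p6, against 369 to 538 in WT at p6 and 375 to 431 in both genotypes at p18. In the single-enhancer lines it was 224 to 303, and against WT 10 of the 20 were lower in ΔCsn1s2bE and 11 in ΔCsn3PE, with none higher, where 15% and 11.5% of all genes were lower. By library totals 5 were lower in each line and 1 was higher in ΔCsn1s2bE. Beside them 4 of 8 fibroblast markers were lower in each line, with sums of 2171 to 3530 normalized CPM against 5041 to 6726 in WT at p18. Eng, an endothelial co-receptor of the TGF-beta family, was lower by a log2 difference of -1.14 ± 0.13 and -1.54 ± 0.15 (SE, adjusted p = 0.000313 and 0.000370 by edgeR). Not every list described below went this way. Of 9 capillary genes, 2 were higher and 2 lower in ΔCsn1s2bE, and 1 and 2 in ΔCsn3PE. Of 14 hypoxia response genes, 5 were higher and 2 lower in each line. Of 15 endothelial transcription factors tested, 2 were higher and 1 lower in ΔCsn1s2bE, and 2 and 0 in ΔCsn3PE. In the other lists, lower calls were at least as many as higher ones.

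Among the 12 tested relatives of the VEGF, angiopoietin and apelin systems, 1 rose and 6 fell in WT between stages, and 2 rose and 7 fell in ΔSE. Vegfb, a VEGF of metabolic tissue, fell, with log2 differences of -0.96 ± 0.17 in WT and -0.86 ± 0.15 in ΔSE (SE; adjusted p = 0.000655 and 0.000397 by edgeR). Nrp2, a co-receptor for VEGF, fell in both (-0.69 ± 0.12 and -0.45 ± 0.10). Nrp1, the co-receptor that VEGFR2 uses in blood vessels, fell by 0.88 ± 0.13 in ΔSE (adjusted p = 9.66e-05 by edgeR). The difference between the genotypes in the stage change of Nrp1 was -0.36 ± 0.20 (SE, adjusted p = 0.377 by edgeR). A fall particular to ΔSE was thus not shown.

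Lists of vessel types were counted in the same way. Of 13 Notch and artery genes, 4 fell in WT and 5 in ΔSE with none higher (7 and 12 lower by library totals), led by Jag1, a Notch ligand, with log2 differences of -0.98 ± 0.13 and -0.81 ± 0.11 (SE; adjusted p = 5.62e-05 and 5.87e-05 by edgeR). Of 6 vein genes, 3 fell in each genotype, among them Nr2f2, the transcription factor of venous identity, with log2 differences of -0.60 ± 0.15 and -0.80 ± 0.13. Of 9 capillary genes, 3 rose and 1 fell in each. Cd36, a fatty acid transporter, rose by 1.96 ± 0.21 in WT and by 0.89 ± 0.17 in ΔSE, and Gpihbp1, which anchors lipoprotein lipase to capillaries, by 1.16 ± 0.16 and 0.60 ± 0.14 (adjusted p of 7.32e-06 to 0.00283 for these by edgeR). Cd36 is also made by secretory epithelium and fat cells. Scaling by library totals removed the calls of both in ΔSE.

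Of 10 genes listed for tip and stalk cells, 2 fell in WT and 5 in ΔSE. Among them was Ednra, an endothelin receptor, with log2 differences of -1.21 ± 0.20 and -1.54 ± 0.17. Which cells of the tissue made Ednra was not tested, and 7 of 8 fibroblast markers fell in ΔSE and 0 in WT. Of 10 pericyte and mural cell genes, 1 rose and 3 fell in WT and 2 fell in ΔSE. Cspg4, a pericyte proteoglycan, fell in both (-0.98 ± 0.15 and -1.62 ± 0.13, SE; adjusted p = 0.000182 and 7.24e-07 by edgeR). Rgs5, of the same list, rose in WT (0.84 ± 0.17, adjusted p = 0.00145 by edgeR). The median log2 difference of this list in WT was -0.02, with 5 of 10 genes positive. Of 6 tested lymphatic markers none was called in WT and 2 fell in ΔSE, Lyve1 (a hyaluronan receptor that macrophages also carry) and Pdpn. Of 14 hypoxia response genes, 6 rose and 1 fell in WT, and 4 rose and 2 fell in ΔSE. By library totals 2 rose and 1 fell in WT, and in ΔSE 2 rose and 6 fell, which turned the balance. Ndrg1 rose by 1.87 ± 0.20 and 2.31 ± 0.18, and Slc2a1, the glucose transporter GLUT1, by 1.67 ± 0.25 and 1.60 ± 0.22, while Vegfa, a known hypoxia target, did not pass in either genotype.

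Of 16 endothelial transcription factors, 2 rose and 2 fell in WT and 2 rose and 4 fell in ΔSE. Foxc1 rose in both genotypes (log2 0.99 ± 0.19 in WT and 1.64 ± 0.17 in ΔSE, SE). Lmo2 rose in WT (1.04 ± 0.16), and without ΔSE p6 replicate 4 it was also called higher at p18 in ΔSE. The difference between the genotypes in the stage change of Lmo2 was -0.56 ± 0.21 (SE, adjusted p = 0.203 by edgeR). Elk3, an ETS factor, fell in both (log2 -0.47 ± 0.14 and -0.60 ± 0.12), as did Gata2 (-1.36 ± 0.40 and -1.24 ± 0.35). Of 10 angiogenesis inhibitors, 2 fell in WT and 3 in ΔSE. Thbs1, which encodes thrombospondin 1, was the only gene of these vascular lists called between ΔSE and WT at p18, higher in ΔSE by 1.48 ± 0.24 (SE; adjusted p = 0.0141 by edgeR), and also the only one called for the genotype difference in stage change (1.74 ± 0.32, adjusted p = 0.0462 by edgeR). It fell by 1.31 ± 0.25 in WT, whereas the ΔSE difference was 0.43 ± 0.21. The interaction call was absent in 15 of 24 alternatives, and the p18 call in 5 of 17. Without ΔSE p6 replicate 4, the counts of genes that fell in ΔSE were 5 of 13 for Notch and artery genes, 7 of 12 for the VEGF, angiopoietin and apelin relatives, 3 of 6 for veins, 3 of 10 for tip and stalk cells, 3 of 10 for pericytes and mural cells, 2 of 6 for lymphatics, 3 of 16 for transcription factors and 2 of 10 for inhibitors. Then 2 capillary genes rose and 1 fell, and 3 hypoxia genes rose and 1 fell.

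**Figure D4:**
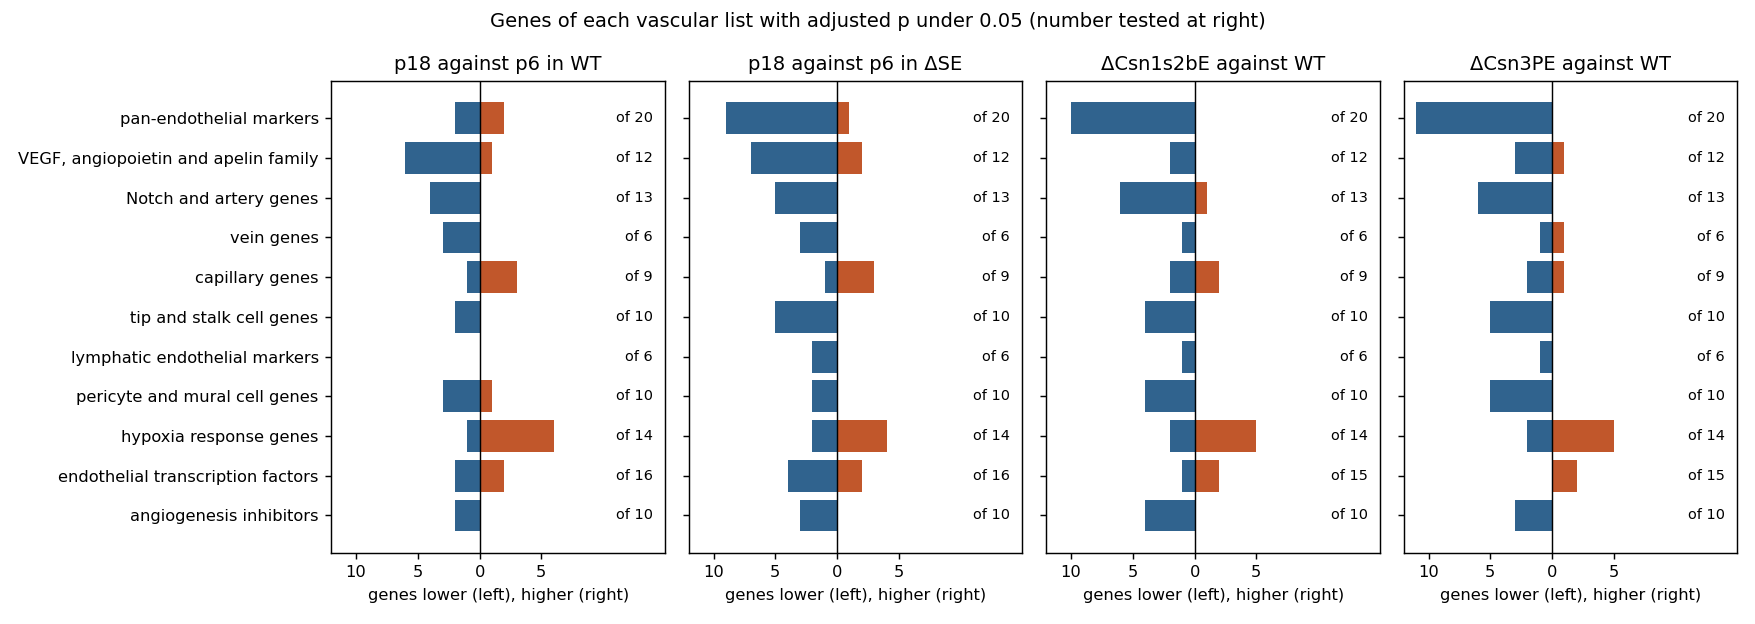
Number of genes in each vascular list with an adjusted p under 0.05 by edgeR, lower (left of 0) or higher (right of 0), in the stage comparisons within WT and ΔSE and in each single-enhancer line against WT at p18; the number tested stands at the right. In ΔSE 9 of 20 endothelial markers were lower at p18, against 2 of 20 in WT, a difference in stage change that was called for 0 of the 20, and 10 and 11 were lower in the single-enhancer lines. By library totals the stage counts were 18 and 7.

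At p6, ΔSE tissue was higher than WT in 1 of the 20 endothelial markers, Cd34 (log2 1.07 ± 0.23 SE, adjusted p = 0.0406 by edgeR), and in 2 of 10 pericyte genes, Rgs5 (0.99 ± 0.16, adjusted p = 0.0183) and Pdgfrb (0.70 ± 0.13, adjusted p = 0.0237). Over all genes 0.499% were called higher. Also higher were Ednrb of the capillary list (1.00 ± 0.17, adjusted p = 0.0195 by edgeR), Lyve1 of the lymphatic list (1.41 ± 0.30, adjusted p = 0.0401) and the ETS factor Ets1 (0.53 ± 0.12, adjusted p = 0.0458), whereas Ndrg1 of the hypoxia list was lower (-0.83 ± 0.18, adjusted p = 0.0458). Of the 20 endothelial markers, 19 had a positive difference, with a median of 0.30 against 0.01 over all genes, of which 51% were positive. The fibroblast, adipocyte and luminal shifts given above belong to the same comparison. Without ΔSE p6 replicate 4 none of these 7 genes was called.

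Genes with the course most like each of the 10 were sought over the 14 WT and ΔSE libraries, among 10452 genes, by the root mean square difference of centred log2 levels. Tek was closest to Arhgap29 (0.0944, against an own spread of 0.303), and Kdr to Pde2a (0.129 against 0.254) and Adgrf5 (0.143). Angpt2 was closest to Igfbp4 (0.188 against 0.627), Pcdh19 and Nova1, and Angpt1 to Mocs1 (0.280 against 1.04), Dab2 and Arfgap3. Flt1 was closest to Apbb2 (0.144 against 0.374), Arhgap31 and Sema3g. Cdh5 had a closest distance of 0.125 to Shc1 against an own spread of 0.170, so that its likeness carries little. These distances are a description over libraries that share stage and genotype.

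Kdr and Flt1 lie on chromosome 5, as the casein genes do (87666208 to 87932665, mm10). Kdr (75932827 to 75978458) ends 11.7 Mb before the locus and Flt1 (147561604 to 147726011) starts 59.6 Mb beyond it. At p18, the log2 difference between ΔSE and WT was 0.12 ± 0.17 for Kdr and 0.25 ± 0.20 for Flt1 (SE; adjusted p = 0.835 and 0.658 by edgeR).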

How the data were processed

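Total RNA from frozen mammary tissue was depleted of ribosomal RNA and sequenced in 19 libraries. The deposited values are counts of reads per gene, made by the authors with Trimmomatic (0.36), STAR (2.5.4a) on mm10 and HTSeq (0.9.1), with no normalization. The gene annotation and strand setting are not given in the sources used here. In the 5 single-enhancer files, summary entries that name no gene were left out, among them reads outside genes (13.2% to 20.9% of a file). All files list 24421 genes.

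Genes with at least 10 reads in total were tested with edgeR (4.0.16, quasi-likelihood, TMM) in R (4.3.3), WT and ΔSE in 1 model of 14 libraries, and the single-enhancer lines with WT at p18 in 1 model of 8. P-values were adjusted by Benjamini-Hochberg over all genes, with a threshold of 0.05. The tests were checked on counts simulated from the spread that edgeR fitted, with independent libraries. That simulation held no outlier library, tissue share or difference between library sets. Angiopoietin and VEGF receptor ratios used reads plus 0.5 and exact permutation over libraries. The 10 genes and the gene lists were chosen with earlier results of these data known. In each list the text names genes from up to 4 of those passing with the smallest p, or gives up to 3 as values where none passed, and the 3 genes most like each member were sought among those with a mean of at least 5 CPM. Replicate numbers did not pair libraries (correlations of deviations from -0.36 to 0.38). Alternatives were DESeq2 (1.42.0) with its size factors, library totals, other filters, leaving out Rn45s or single libraries, a factor of unwanted variation, a replicate block and other sets of groups. Leaving out both muscle-rich ΔSE p6 libraries was added after seeing the data. Replicates may share founders or litters, in which case p-values measure only the spread between these samples. Counts from 12335272 to 30329601 reads per library set the precision, and Esm1, with few reads, is limited by counting.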

Additional observations from a re-analysis of the deposited data

Results flagged for a closer look

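Angpt2 in ΔSE at p18 had 1 library far from the others, replicate 1 at 9.76 normalized CPM against 13.6, 13.9 and 14.4, with a gap of 0.835 of the group's range. This was 1 of 24 groups of 4 values examined, and chance marks about 1 in 20 such groups. Without this library Angpt2 still fell in ΔSE between p6 and p18 (log2 -1.21 ± 0.19 SE, adjusted p = 0.000423 by edgeR), against -1.32 with it.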

How the results depend on the processing

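Stage calls in WT (1 gene) became 4 with library totals and 2 without Rn45s, with filterByExpr and with DESeq2, and 0 with a factor of unwanted variation removed. In ΔSE (6 genes) they became 10 and 0 under library totals and the removed factor. There Vegfa reached -0.51 by totals, against 0.08, and Flt1 reached 0.50 with the factor removed, against -0.50. That removal left 7 and 0 genes called between stages over all genes in WT and ΔSE. ΔSE against WT gave 1 call at p18 by DESeq2 and with only the 2 groups compared. At p6 it gave 0 under library totals, the removed factor, only the 2 groups, and both muscle-rich libraries left out. The difference in stage change gave 2 by DESeq2. ΔCsn1s2bE against WT (2 genes) gave 4 under library totals, with Vegfa at 0.000276, and 1 with no filter. ΔCsn3PE against WT (2 genes) gave 1 under library totals and 4 without Rn45s, with filterByExpr and by DESeq2, and the 2 single-enhancer lines differed in 1 gene by DESeq2.

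The replicate number as a block gave 0 calls at p6 between ΔSE and WT, 1 in ΔCsn1s2bE against WT, 1 between the single-enhancer lines, 1 and 6 for the stage comparisons in WT and ΔSE, and 3 in ΔCsn3PE. Only 4 of 14 libraries matched best with their own number. The cause of these shifts was not tested.

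Leaving out 1 library gave 1 to 4 calls for stage in WT (4 without p6 replicate 3) and 4 to 6 in ΔSE. ΔSE against WT gave 0 to 1 at p18 (1 without WT replicate 3) and 0 to 3 at p6, with 3 without WT replicate 2, 1 without ΔSE replicate 1 and 0 without any other library. The difference in stage change gave 0 to 1 (1 without WT p6 replicate 2). ΔCsn1s2bE gave 0 to 2 (0 without WT p18 replicate 1, or without its own replicate 3, and 1 without WT p18 replicate 2 or its own replicates 1 or 2), and ΔCsn3PE 0 to 4 (0 without its replicate 1, 4 without its replicate 2). The Flt1 to Kdr difference at p6 ranged from -0.27 to 0.00649 (without WT p6 replicate 2), while the other ratio differences kept their sign.

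With the longest transcript as length, Pecam1 ranked 1, Cdh5 4, Flt1 8 and Angpt2 9 at p18 in WT. Of 1400 further values of single genes under these alternatives, 1244 kept direction and call, 53 lost the call, 44 gained it, 56 uncalled ones changed sign and 3 changed sign with a call on either side, as given above. Esm1, at 2 to 58 reads in WT and ΔSE, is limited by depth.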
